A study of Homo sapiens with 18 samples.

Results

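The genes described here encode the matrix metalloproteinases (MMP), their tissue inhibitors (TIMP) and the ADAMTS family of secreted proteases. Ensembl identifiers in the count files were matched, without their version, to GENCODE 44 symbols, and every protein-coding gene named MMP, TIMP or ADAMTS plus a number was taken. This gave 46 genes, of which 23 were MMP, 4 were TIMP and 19 were ADAMTS genes. All 46 were listed on every platform, among 60617 genes in the Illumina files and 58676 in the long-read files. The study sequenced RNA from HCC827 and NCI-H1975 (H1975 below), a pair of established human lung adenocarcinoma cell lines that both carry activating EGFR mutations, with 3 independent RNA samples per line and no treatment named in the labels. Each of the 6 RNA samples was sequenced as short reads on an Illumina NextSeq, as long cDNA reads on an Oxford Nanopore (ONT) PromethION and as PacBio Sequel II Iso-Seq, which made 18 libraries in 6 groups of 3. RNA input, library preparation and sequencer changed together between platforms, so each comparison below sets HCC827 against H1975 within 1 platform. Each line stands for 1 tumour, so a difference between the lines and one between their tumours cannot be told apart.

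Metalloproteinases of the MMP family cut collagens, gelatin, proteoglycans and many cell surface proteins, and are made as inactive precursors that other proteases, furin included, convert to active enzymes. TIMP proteins bind their active sites, and TIMP2 also helps membrane-anchored MMP14 to activate the gelatinase MMP2. ADAMTS proteases trim procollagens, cartilage-type proteoglycans, fibrillin-rich fibres and von Willebrand factor. In lung tumours fibroblasts and inflammatory cells make many of these proteases as well, and a culture of a tumour cell line is grown without them.

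Counts assigned to genes totalled 33362018 to 40200473 per Illumina library, apart from 10020699 in HCC827 replicate 2, 81467393 to 116497461 per ONT library and 37795 to 54339 per PacBio library. All 5 epithelial markers were higher in HCC827 than in H1975 on Illumina, for example KRT18 with 2919 CPM (counts scaled to library size) in HCC827 and 487 CPM in H1975, and EPCAM with 258 CPM in HCC827 and 217 CPM in H1975. The fibroblast markers DCN, LUM and PDGFRA, the leukocyte marker PTPRC and all neutrophil and mast cell markers were below 0.3 CPM on average in both lines, and were not tested. The other 3 of the 6 fibroblast markers were lower in HCC827 on Illumina: PDGFRB averaged 0.137 CPM in HCC827 and 2.49 CPM in H1975 (log2 fold -5.08 ± 0.44, adjusted p = 1.27e-07), COL6A3 0.195 CPM in HCC827 and 4.11 CPM in H1975 (-4.21 ± 0.25, adjusted p = 2.49e-09), and FAP 0.129 CPM in HCC827 and 1.40 CPM in H1975 (-3.32 ± 0.35, adjusted p = 9.13e-07). The 6 summed to between 0.541 and 0.979 CPM in HCC827 libraries and between 7.83 and 8.93 CPM in H1975 libraries. On ONT the sum was instead higher in HCC827, between 1.61 and 2.48 CPM in HCC827 and between 0.953 and 1.11 CPM in H1975, with PDGFRB called in the opposite direction (1.60 ± 0.22, adjusted p = 0.000104) and FAP again lower (-1.95 ± 0.41, adjusted p = 0.00176). The part of these markers in the protease differences was not tested. Some other markers on those lists were not near 0 on Illumina. The endothelial marker PECAM1 averaged 1.40 CPM in HCC827 and 3.62 CPM in H1975. Counts of CSF1R, a macrophage receptor, averaged 1170 CPM in HCC827 and 295 CPM in H1975. The macrophage marker CD68 averaged 123 CPM in HCC827 and 66.7 CPM in H1975, while CD163 and MARCO averaged below 0.3 CPM in both lines. Overlap with other genes was not looked at for these markers. Whether the CSF1R counts come from CSF1R transcripts was not tested, so they are not read as expression of this receptor. The PacBio libraries of HCC827 replicates 1 and 2 were no further apart than sampling noise allows, with a mean chi-square of 0.671 over genes, and so were those of H1975 replicates 2 and 3, with 0.550. Each such pair may be 1 library, so the 3 PacBio libraries of a line may not be independent. PacBio values are given as counts summed over a line, and a molecule read in both libraries of a pair would be counted more than once.

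Most of these genes differed between the lines, more of them towards lower values in HCC827. Of the 33 genes with enough Illumina counts to test, 8 were higher and 19 lower in HCC827 and 6 did not pass an adjusted p of 0.05 (edgeR quasi-likelihood test, Benjamini-Hochberg adjustment over all genes, 3 libraries per line). That is 81.8% of the tested genes, against 74.1% of all 25711 genes tested, of which 36.1% were higher and 38% lower. Their median log2 fold was -0.97, against -0.04 over all genes tested. On ONT, 33 genes were tested, of which 8 were higher, 16 lower and 9 not called. That is 72.7%, against 62.7% of all 27366 genes (31.1% higher and 31.6% lower), and the median log2 fold was -1.18, against -0.02 over all genes. Both platforms tested 29 genes, and called 20 of them, 6 higher and 14 lower on both and 0 in opposite directions. The 6 higher were MMP7, MMP24, MMP25, MMP26, ADAMTS1 and ADAMTS16. Counts of MMP24, MMP25 and MMP26 may hold reads of overlapping genes, and the ONT call of ADAMTS1 was lost under some alternatives (below). A further 8 genes were tested on 1 platform, and 9 genes, ADAMTS3, ADAMTS4, ADAMTS5, ADAMTS19, MMP3, MMP8, MMP12, MMP27 and TIMP3, had too few counts for a test on either platform. Since the test needs counts in at least 1 line, a gene that is near 0 in both lines is not among the tested ones.

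**Figure D1:**
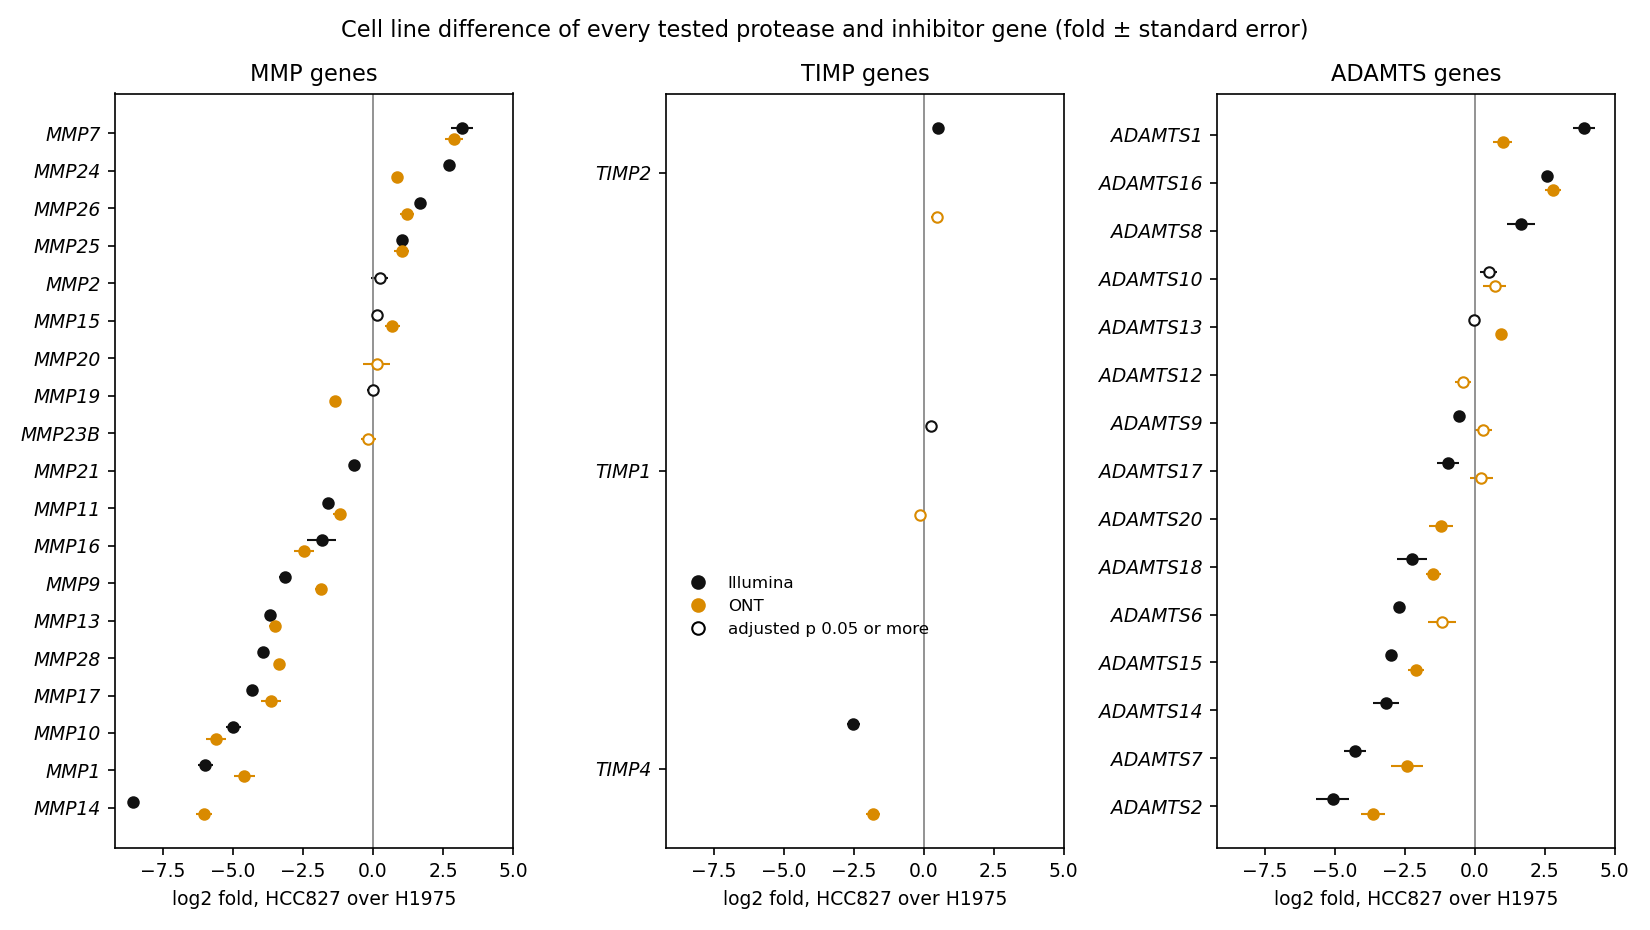
Log2 fold (HCC827 over H1975) with its standard error for every MMP, TIMP and ADAMTS gene tested on Illumina (black) or ONT (orange), with open circles where the adjusted p is 0.05 or more. Points left of the line at 0 are lower in HCC827; MMP14 lies farthest left on both platforms, at -8.55 on Illumina and -6.03 on ONT.

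The leading membrane-anchored metalloproteinase differed between the lines. MMP14, the main membrane-type collagenase and an activator of MMP2 (chromosome 14, 22836560 to 22849041, plus strand, GRCh38), was close to absent from HCC827 and abundant in H1975. Its Illumina levels were 0.461, 0.699 and 0.440 CPM in HCC827 replicates 1 to 3, against 192, 173 and 183 CPM in H1975 replicates 1 to 3, or 0.533 ± 0.144 CPM in HCC827 and 183 ± 9.23 CPM in H1975 (SD, n = 3). The log2 fold was -8.55 ± 0.16 (SE), with an adjusted p of 1.6e-13. All HCC827 libraries thus lay below 1 CPM and all H1975 libraries above 100 CPM. In such bulk RNA, fewer expressing cells and less RNA per cell cannot be told apart. ONT gave 0.0539, 0.166 and 0.113 CPM in HCC827, against 6.72, 7.29 and 7.72 CPM in H1975, with a log2 fold of -6.03 ± 0.28 (adjusted p = 5.01e-08). No exon of MMP14 overlaps an exon of another gene in the annotation, and no gene with 30 or more counts over the 6 libraries of a platform overlaps it.

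MMP24, a membrane-anchored MMP best known from the nervous system (chromosome 20, 35226690 to 35276998, plus strand), went the other way. Illumina gave 128, 159.9 and 139 CPM in HCC827, against 22.5, 21.6 and 21.0 CPM in H1975, a log2 fold of 2.71 ± 0.11 (adjusted p = 3.68e-11). ONT libraries held 21.7, 29.5 and 22.2 CPM in HCC827, against 13.9, 13.8 and 12.6 CPM in H1975, a log2 fold of 0.86 ± 0.16 (adjusted p = 0.000692). Every HCC827 library was above every H1975 library on both platforms, with a smaller distance on ONT. The antisense gene MMP24OS spans MMP24 and shares exon sequence with it, and the ratio of MMP24 to MMP24OS counts ranged over 0.409 to 0.915 on Illumina, so reads of this pair may not be fully separable where counting ignored strand. Sources used here do not state whether the counting used strand.

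Of the other membrane-type enzymes, MMP17, held in the membrane by a lipid anchor, was lower in HCC827. It had 0.518, 0.466 and 0.744 Illumina CPM in HCC827, against 12.2, 11.0 and 12.8 CPM in H1975, with a log2 fold of -4.31 ± 0.18 (adjusted p = 6.29e-11). The ONT log2 fold of MMP17 was -3.63 ± 0.36 (adjusted p = 9.41e-06). MMP16, a further membrane-spanning enzyme, had few counts and was lower in HCC827 on both platforms, by log2 folds of -1.83 ± 0.52 on Illumina (adjusted p = 0.00532) and -2.45 ± 0.35 on ONT (adjusted p = 0.000128). MMP15, a close relative of MMP14, was not called on Illumina. It had 53.8, 58.1 and 58.9 Illumina CPM in HCC827, against 54.2, 46.7 and 53.1 CPM in H1975, ranges that overlap, and the log2 fold of 0.15 ± 0.10 did not pass the test (adjusted p = 0.174). On ONT, HCC827 replicate 2 held 7.44 CPM of MMP15 beside 3.86 and 3.57 CPM in replicates 1 and 3, against 3.16, 2.99 and 3.04 CPM in H1975. The ONT log2 fold of MMP15 was 0.70 ± 0.26 (adjusted p = 0.0344), but 0.31 without HCC827 replicate 2 (adjusted p = 0.0522), and the call was also lost without any single H1975 library. MMP25, the second lipid-anchored member and first known from leukocytes, had 9.90, 11.9 and 8.32 Illumina CPM in HCC827, against 4.73, 4.63 and 4.78 CPM in H1975, with a log2 fold of 1.05 ± 0.13 (adjusted p = 6.42e-06). Its ONT log2 fold was 1.02 ± 0.28 (adjusted p = 0.00882), and 0.67 without HCC827 replicate 2. MMP25 counts were 0.990 to 1.02 times those of its antisense neighbour MMP25-AS1 in every Illumina library, so MMP25 and MMP25-AS1 cannot be told apart here.

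**Figure D2:**
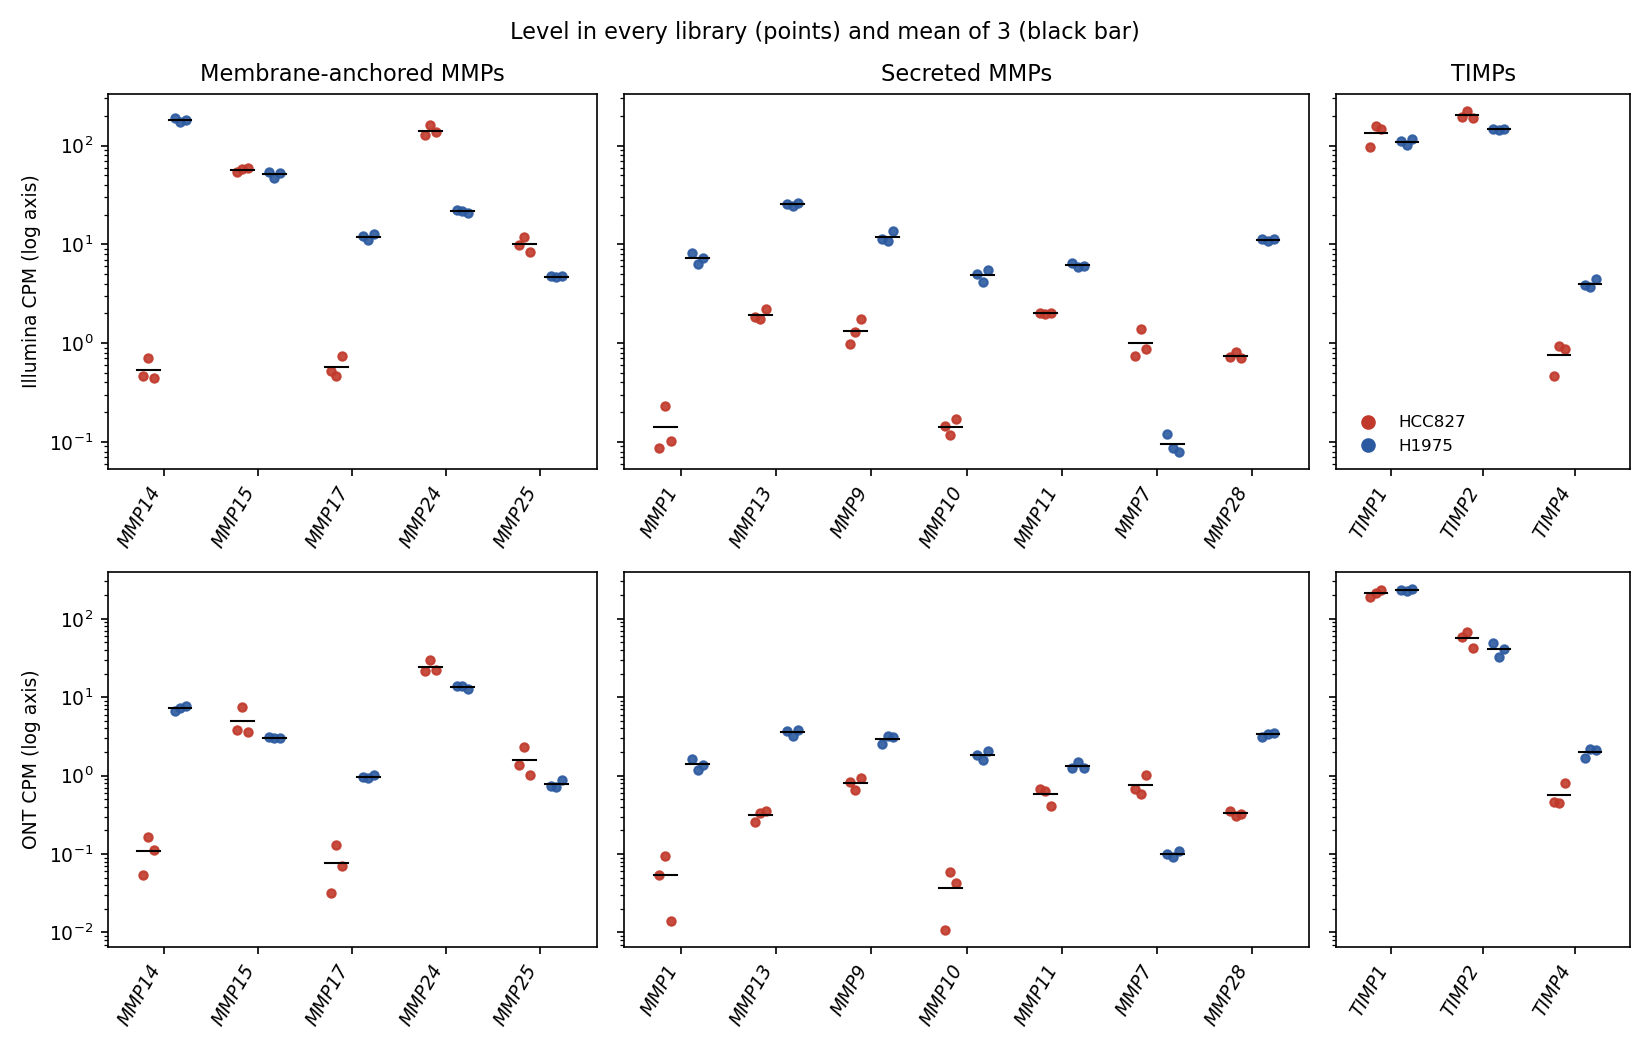
CPM on a log axis in every library (points) with the mean of the 3 libraries (bar) for membrane-anchored MMPs, secreted MMPs and TIMPs, Illumina above and ONT below, HCC827 in red left of H1975 in blue. MMP14 and MMP24 separate the lines in opposite directions, while TIMP1 points of both lines lie close together.

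Levels per kilobase of exon (RPKM, counts scaled to exon length and library size) were used to set different genes beside each other within a line. On Illumina, MMP24 made up 48.3% to 51.2% of the summed MMP level in the HCC827 libraries, against 5.21% to 5.77% in the H1975 libraries. MMP14 made up 0.145% to 0.203% of that sum in HCC827, against 43.0% to 43.9% in H1975. MMP24 averaged 32.5 RPKM in HCC827 and 4.96 RPKM in H1975, while MMP14 averaged 0.115 RPKM in HCC827 and 39.5 RPKM in H1975. By these counts, a different gene led the MMP sum in each line. The 4 TIMP genes held 60.1% to 64.6% of the summed level of all 46 genes in HCC827, against 50.2% to 51.8% in H1975. The 23 MMP genes held 31.8% to 34.9% in HCC827, against 44.01% to 45.7% in H1975. The 19 ADAMTS genes held 3.41% to 5.06% in HCC827, against 4.12% to 4.84% in H1975. The ADAMTS ranges overlap, and the TIMP and MMP ranges do not. These sums include MMP24, MMP25, MMP26 and TIMP1, whose counts may hold reads of genes on the opposite strand. MMP26 made up 23.7% and 21.4% of the MMP sum in HCC827 replicates 2 and 3. Counts of MMP26 and TIMP1 were close to those of genes with which they share no annotated exon. Counts may thus include reads outside exons, which exon length does not scale, so levels of different genes are approximate. The part of such reads in the shares was not tested.

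The collagenases MMP13 and MMP1 and the stromelysin MMP10 were lower in HCC827 on both platforms. MMP13, which cuts fibrillar collagens, had 1.84, 1.75 and 2.23 Illumina CPM in HCC827, against 25.9, 24.7 and 26.0 CPM in H1975, with a log2 fold of -3.68 ± 0.13 (adjusted p = 1.13e-11). MMP1, the interstitial collagenase, had 0.0864, 0.233 and 0.102 Illumina CPM in HCC827, against 8.18, 6.27 and 7.28 CPM in H1975, with a log2 fold of -5.99 ± 0.28 (adjusted p = 1.66e-10). MMP10, a stromelysin that can activate other MMP precursors, had 0.144, 0.117 and 0.169 Illumina CPM in HCC827, against 5.04, 4.13 and 5.50 CPM in H1975, with a log2 fold of -4.98 ± 0.27 (adjusted p = 8.15e-10). No HCC827 library reached the lowest H1975 library for any of these 3 genes. The HCC827 levels of MMP1 and MMP10 rest on 8 and 11 Illumina counts over 3 libraries, against 901 and 606 in H1975. ONT log2 folds were -3.51 ± 0.21 for MMP13, -4.60 ± 0.37 for MMP1 and -5.60 ± 0.36 for MMP10 (adjusted p = 2.7e-07 for MMP13, 2.37e-06 for MMP1 and 5.02e-07 for MMP10). MMP3, another stromelysin, was below the test's minimum, with 1 Illumina count in HCC827 against 33 in H1975. This made MMP3 24.4-fold higher in H1975 per total count (95% Clopper-Pearson interval 4.08 to 991, counting error only). On ONT, MMP3 had 0 counts in HCC827 and 24 in H1975, at least 9.41-fold lower in HCC827 when a floor of 3 counts over the group is used. MMP1, MMP3 and MMP10 overlap the pseudogene WTAPP1 on the opposite strand. WTAPP1 had 3 to 16 Illumina counts per HCC827 library, against 506 to 566 per H1975 library. Over these libraries MMP1 held 0.19 to 0.67 times and MMP10 0.31 to 0.41 times the WTAPP1 counts. WTAPP1 counts may thus hold reads of these genes, so no line difference of its own is read from them. How many reads were shared was not tested.

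MMP7, the small epithelial protease matrilysin, was the exception among the secreted enzymes of that chromosomal region. Its Illumina level was 0.749, 1.40 and 0.880 CPM in HCC827, against 0.121, 0.0870 and 0.0797 CPM in H1975, a log2 fold of 3.19 ± 0.39 (adjusted p = 4.52e-06). ONT libraries held 0.668, 0.591 and 1.03 CPM in HCC827, against 0.0989, 0.0912 and 0.109 CPM in H1975, a log2 fold of 2.91 ± 0.32 (adjusted p = 2.03e-05). The levels were low in both lines, and the ranges were apart on both platforms. MMP7 stands at the low-coordinate end of a group of 9 MMP genes on chromosome 11 (102520508 to 102955732), followed by MMP20, MMP27, MMP8, MMP10, MMP1, MMP3, MMP12 and MMP13, all on the minus strand. Of the 5 genes of this group tested on Illumina or ONT, MMP7 was higher in HCC827 on both platforms, MMP10, MMP1 and MMP13 were lower on both, and MMP20, an enamel protease tested on ONT alone, was not called (log2 fold 0.14 ± 0.48, adjusted p = 0.816). MMP27 and MMP8 had at most 2 counts per line on either platform, and MMP12, the macrophage elastase, had 4 Illumina counts in HCC827 against 8 in H1975.

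**Figure D3:**
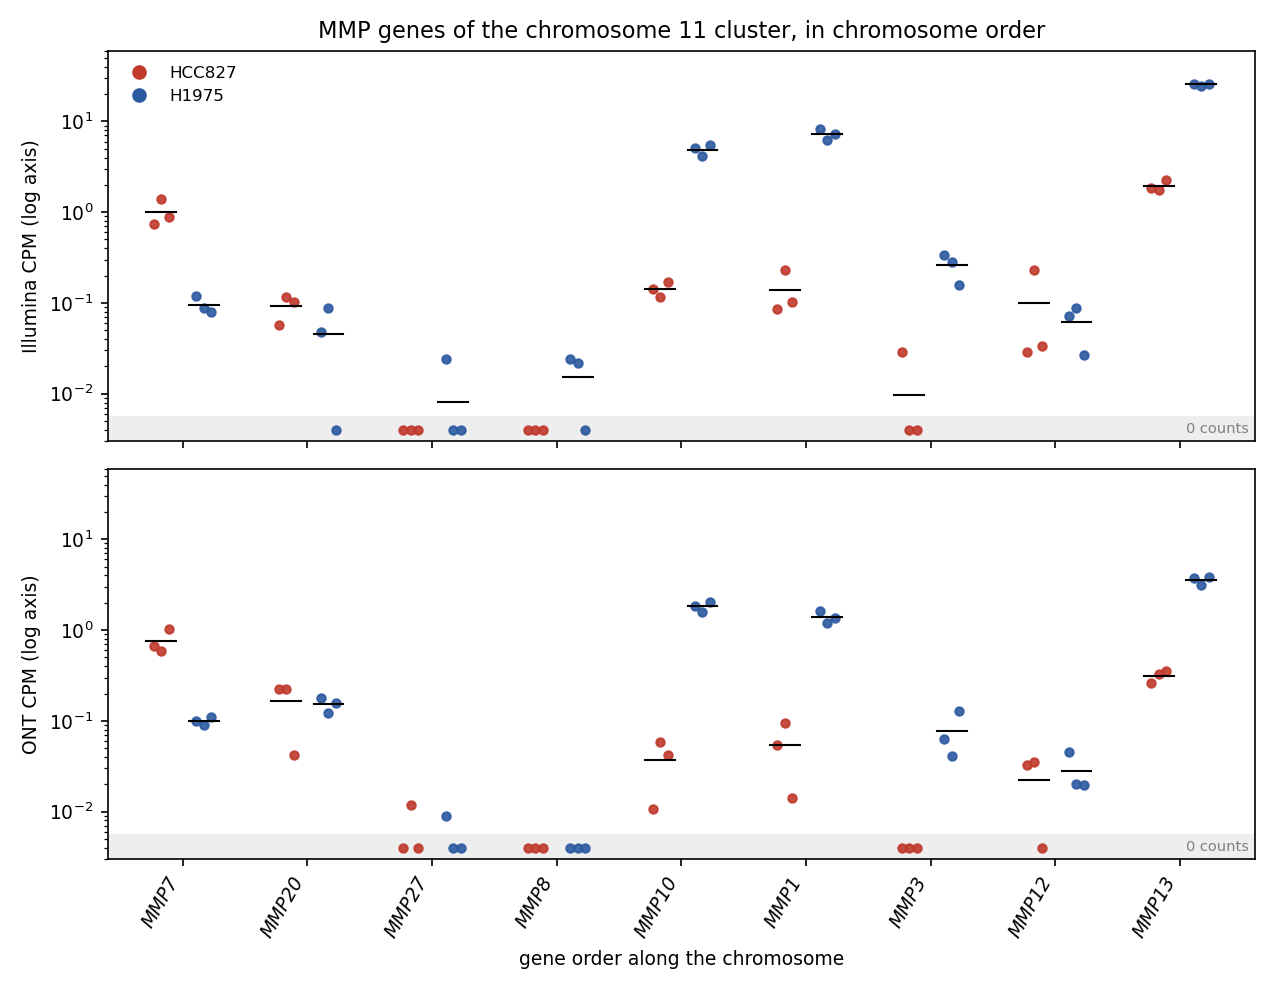
CPM on a log axis in every library for the 9 MMP genes of the chromosome 11 group, in chromosome order, Illumina above and ONT below, HCC827 in red left of H1975 in blue, bars for means and a grey band for libraries with 0 counts. MMP7 points of HCC827 lie above those of H1975, and MMP10, MMP1 and MMP13 points lie below.

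Promoter sequence was looked at for the members that moved in opposite directions. The RefSeq promoter table (GRCh38.p14), which gives 250 bases before to 50 bases after each start, held 28 windows for 27 of the 46 genes. Shown are the 150 bases before the start of MMP10 and MMP7, 2 members of the chromosome 11 group with opposite line differences, and of MMP14 and MMP24, the leading MMP of each line. Capitals mark 2 motifs on the strand shown. These are TGANTCA (the form bound by AP-1, a dimer of FOS and JUN proteins) and TATAAA, the TATA box sequence. Counts of windows below take TATAAA on either strand, and TGANTCA reads the same on both.
MMP10, chr11:102780629-102780778, minus strand: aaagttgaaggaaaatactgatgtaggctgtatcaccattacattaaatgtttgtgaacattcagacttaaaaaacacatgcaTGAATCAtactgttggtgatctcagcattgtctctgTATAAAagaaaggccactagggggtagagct
MMP7, chr11:102530748-102530897, minus strand: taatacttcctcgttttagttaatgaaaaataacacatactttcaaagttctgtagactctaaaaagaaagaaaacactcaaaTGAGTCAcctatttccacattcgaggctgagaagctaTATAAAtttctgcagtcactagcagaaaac
MMP14, chr14:22836435-22836584, plus strand: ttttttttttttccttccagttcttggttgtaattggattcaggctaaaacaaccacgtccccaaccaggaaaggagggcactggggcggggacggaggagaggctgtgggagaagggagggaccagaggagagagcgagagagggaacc
MMP24, chr20:35226540-35226689, plus strand: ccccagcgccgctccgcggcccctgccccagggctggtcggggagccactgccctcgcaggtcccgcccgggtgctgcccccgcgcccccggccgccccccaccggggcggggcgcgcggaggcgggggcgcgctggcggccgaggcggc

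Both chromosome 11 windows held TGANTCA with its first base 67 bases before the start, as TGAATCA in MMP10 and TGAGTCA in MMP7, and a TATAAA 31 bases before the start of MMP10 and 30 bases before that of MMP7. The windows of MMP14 and MMP24 held neither motif, and the whole 300-base windows had a GC content of 55% in MMP14 and 80.0% in MMP24, against 36.3% in MMP10 and 35.7% in MMP7. Among the 28 windows, TGANTCA occurred in 4, those of MMP7, MMP10, MMP20 and ADAMTS12, against 7.71% of all 35116 windows in the table. TATAAA occurred on either strand, at any place in the window, in 7 of the 28, against 11.5% of all windows. MMP10 and MMP7 shared both motifs at nearly the same place and differed between the lines in opposite directions. Any part of the motifs in these differences was not tested, and no window was available for MMP1, MMP3, MMP12 or MMP13 of the same group.

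Among the remaining secreted enzymes, MMP9, a gelatinase, was lower in HCC827. It had 0.979, 1.28 and 1.76 Illumina CPM in HCC827, against 11.4, 10.9 and 13.5 CPM in H1975, with a log2 fold of -3.16 ± 0.19 (adjusted p = 2.47e-09). On ONT it had 0.841, 0.662 and 0.946 CPM in HCC827, against 2.54, 3.22 and 3.10 CPM in H1975, with a log2 fold of -1.86 ± 0.20 (adjusted p = 1.84e-05). MMP9 shares exon sequence with the antisense gene SLC12A5-AS1, and the ratio of its counts to those of that gene was 0.791 to 2.10 on Illumina and 0.212 to 0.398 on ONT. MMP2, the other gelatinase and the enzyme that MMP14 activates, had a mean below 1 CPM in both lines and an Illumina log2 fold of 0.24 ± 0.30 that was not called (adjusted p = 0.485). MMP28, epilysin, had 0.720, 0.816 and 0.711 Illumina CPM in HCC827, against 11.3, 10.8 and 11.4 CPM in H1975, with log2 folds of -3.93 ± 0.15 on Illumina (adjusted p = 3.55e-11) and -3.35 ± 0.19 on ONT (adjusted p = 2.15e-07). MMP11, which furin activates inside the cell, had 2.02, 1.98 and 2.03 Illumina CPM in HCC827, against 6.42, 5.87 and 6.09 CPM in H1975, with log2 folds of -1.60 ± 0.14 on Illumina (adjusted p = 1.15e-07) and -1.19 ± 0.23 on ONT (adjusted p = 0.000996). No library of HCC827 overlapped one of H1975 for MMP9, MMP28 or MMP11 on either platform.

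A further group of MMP genes overlapped other transcripts so closely that their values are uncertain. MMP26, the second matrilysin, had 16.5, 30.7 and 24.3 Illumina CPM in HCC827, against 7.70, 7.29 and 6.51 CPM in H1975, a log2 fold of 1.69 ± 0.18 (adjusted p = 8.03e-07). Its counts were 1.00 to 1.05 times those of KRT8P49, a keratin 8 pseudogene inside MMP26 on the opposite strand, in every Illumina library, and KRT8 itself was higher in HCC827 by a log2 fold of 1.97 (adjusted p = 3.65e-08). MMP26 and KRT8P49 share no annotated exon, and their Illumina counts cannot be told apart here. The MMP26 fold and level are therefore not read as those of MMP26 alone. Whether MMP26 counts come from MMP26 transcripts or from keratin 8 reads was not tested. MMP19, a broadly expressed secreted enzyme, had 1.47, 1.75 and 1.25 Illumina CPM in HCC827, against 1.76, 1.26 and 1.25 CPM in H1975, overlapping ranges with a log2 fold of 0.00 ± 0.22 (adjusted p = 0.989). ONT instead gave 1.12, 1.31 and 1.20 CPM of MMP19 in HCC827, against 2.71, 3.36 and 3.20 CPM in H1975, a log2 fold of -1.35 ± 0.18 (adjusted p = 6.6e-05). MMP19 counts were 0.222 to 0.315 times those of its antisense neighbour TMEM198B on Illumina and 0.825 to 0.974 times on ONT, so the counts of the pair were close to equal on ONT. MMP21, known for its part in left-right patterning of the embryo, was lower in HCC827 on Illumina (log2 fold -0.66 ± 0.16, adjusted p = 0.0018) but had 1 ONT count in HCC827 and 2 in H1975. MMP23B, which has a near-identical copy, MMP23A, was tested on ONT alone and not called (log2 fold -0.16 ± 0.26, adjusted p = 0.618).

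Of the 3 inhibitors tested, TIMP4 was lower in HCC827 on both platforms, TIMP2 was higher on Illumina and TIMP1 was not called on either. TIMP1 had 96.3, 156 and 147 Illumina CPM in HCC827, against 111, 101 and 117 CPM in H1975. HCC827 replicate 1 lay below all H1975 libraries and replicates 2 and 3 above them, and the log2 fold of 0.27 ± 0.15 was not called (adjusted p = 0.109). Without HCC827 replicate 1 it was 0.46 and passed (adjusted p = 9.41e-05). On ONT, TIMP1 had 191, 213 and 233 CPM in HCC827, against 235, 225 and 242 CPM in H1975, overlapping ranges with a log2 fold of -0.14 ± 0.12 (adjusted p = 0.345). TIMP1 lies within the synapsin gene SYN1 on the opposite strand, and although they share no annotated exon its counts were 0.974 to 0.991 times those of SYN1 on Illumina and 0.935 to 0.969 times on ONT. Illumina counts of TIMP1 were also 0.997 to 0.999 times those of a non-coding gene that spans it on the opposite strand. TIMP1 and these genes thus cannot be told apart by their counts. Whether the same reads were counted for each of them was not tested. TIMP2, the inhibitor that also takes part in MMP2 activation, had 196, 226 and 192 Illumina CPM in HCC827, against 147, 143 and 147 CPM in H1975. The ranges were apart, and TIMP2 was higher in HCC827 by a log2 fold of 0.49 ± 0.10 (adjusted p = 0.000384). On ONT the ranges overlapped, at 59.2, 68.4 and 41.9 CPM in HCC827 against 49.4, 32.9 and 40.7 CPM in H1975, and the log2 fold of 0.46 ± 0.20 was not called (adjusted p = 0.0658). It passed without HCC827 replicate 3 (0.65, adjusted p = 0.00995) or without H1975 replicate 1 (0.61, adjusted p = 0.0439). TIMP4, a tissue-restricted inhibitor, had 0.461, 0.933 and 0.880 Illumina CPM in HCC827, against 3.86, 3.68 and 4.44 CPM in H1975, with log2 folds of -2.51 ± 0.23 on Illumina (adjusted p = 1.96e-07) and -1.82 ± 0.25 on ONT (adjusted p = 0.000107). It shares exon sequence with SYN2 on the opposite strand. SYN2 had 44 to 193 Illumina counts per HCC827 library against 573 to 646 per H1975 library, and 1264 to 5453 against 679 to 914 on ONT. TIMP2 shares exon sequence with CEP295NL on the same strand, at 6.01 to 7.93 times its Illumina counts. The part of shared reads in TIMP4 and TIMP2 was not tested. TIMP3, which binds to the matrix, had 5 Illumina counts in HCC827 and 4 in H1975, and 2 ONT counts in HCC827 and 0 in H1975. Per kilobase, TIMP1 averaged 92.0 RPKM in HCC827 and 75.9 RPKM in H1975, and TIMP2 33.0 RPKM in HCC827 and 23.5 RPKM in H1975. By this approximate measure, MMP14 at 39.5 RPKM stood between TIMP1 and TIMP2 in H1975. In HCC827 MMP24 stood beside TIMP2, since its libraries of 29.3 to 36.5 RPKM overlap the 31.0 to 36.5 RPKM of TIMP2.

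ADAMTS genes that cut cartilage-type proteoglycans moved in both directions. ADAMTS1 (chromosome 21, 26835755 to 26845409, minus strand) had 1.96, 1.28 and 1.35 Illumina CPM in HCC827, against 0.0241, 0.131 and 0.159 CPM in H1975, with a log2 fold of 3.89 ± 0.40 (adjusted p = 6.74e-07). On ONT, ADAMTS1 had 0.172, 0.201 and 0.169 CPM in HCC827, against 0.0899, 0.101 and 0.0794 CPM in H1975, and a log2 fold of 1.00 ± 0.34 (adjusted p = 0.0256). The lines did not overlap on either platform, but the ONT call was lost without HCC827 replicate 2 or without any single H1975 library (adjusted p between 0.0566 and 0.103). ADAMTS15 was lower in HCC827, with 1.32, 0.933 and 0.914 Illumina CPM, against 9.51, 8.22 and 8.64 CPM in H1975, and log2 folds of -2.99 ± 0.17 on Illumina (adjusted p = 1.38e-09) and -2.09 ± 0.28 on ONT (adjusted p = 7.32e-05). ADAMTS9 had 5.59, 3.26 and 4.60 Illumina CPM in HCC827, against 6.88, 7.42 and 6.75 CPM in H1975, a log2 fold of -0.57 ± 0.15 (adjusted p = 0.00362). The ONT log2 fold of ADAMTS9 was 0.30 ± 0.30, with overlapping ranges and no call (adjusted p = 0.398). ADAMTS8 was higher in HCC827 on Illumina (log2 fold 1.65 ± 0.50, adjusted p = 0.00803), from 34 counts in HCC827 and 19 in H1975, and was not tested on ONT. ADAMTS20 was lower in HCC827 on ONT (log2 fold -1.20 ± 0.43, adjusted p = 0.0305), a call that was lost without HCC827 replicate 1 or 2 or H1975 replicate 2 or 3 (adjusted p between 0.0738 and 0.140).

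Of the procollagen-trimming and COMP-cutting members, ADAMTS2, ADAMTS14 and ADAMTS7 were lower in HCC827. ADAMTS2, which removes the amino-terminal propeptide of fibrillar collagens, had 0, 0 and 0.0677 Illumina CPM in HCC827, against 0.917, 1.28 and 0.930 CPM in H1975. With 2 counts in HCC827 and 132 in H1975 it was 48.7-fold higher in H1975 per total count (95% Clopper-Pearson interval 13.2 to 407, counting error only), and it was called (adjusted p = 2.21e-06). The ONT log2 fold of ADAMTS2 was -3.62 ± 0.42 (adjusted p = 2.99e-05). ADAMTS14, a second procollagen protease, was lower in HCC827 on Illumina by a log2 fold of -3.17 ± 0.46 (adjusted p = 2.2e-05), from 5 counts in HCC827 against 81 in H1975. ADAMTS3, the third of them, was not tested, with 9 Illumina counts in HCC827 and 38 in H1975. ADAMTS7, which cuts the cartilage matrix protein COMP, had 0.0288, 0.117 and 0.102 Illumina CPM in HCC827, against 1.30, 1.52 and 1.36 CPM in H1975, and log2 folds of -4.27 ± 0.40 on Illumina (adjusted p = 2.8e-07) and -2.40 ± 0.57 on ONT (adjusted p = 0.00373). ADAMTS12, its closest relative, was tested on ONT alone and not called (log2 fold -0.41 ± 0.28, adjusted p = 0.215), although Illumina held 7 counts in HCC827 and 53 in H1975 with no overlap between libraries.

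ADAMTS6 and ADAMTS10 act on fibrillin-rich fibres. ADAMTS6 had 1.93, 2.21 and 1.79 Illumina CPM in HCC827, against 12.2, 13.7 and 11.2 CPM in H1975, a log2 fold of -2.69 ± 0.14 (adjusted p = 8.04e-10). Levels of ADAMTS6 were far higher on ONT, at 47.6, 61.2 and 9.98 CPM in HCC827, against 75.1, 102 and 91.7 CPM in H1975. HCC827 replicate 3 stood apart there, with 707 counts beside 4415 and 5179 in replicates 1 and 2, and the log2 fold of -1.18 ± 0.50 was not called (adjusted p = 0.0639). Without that library it was -0.71 and passed (adjusted p = 0.00542). ADAMTS10 did not pass on either platform, with log2 folds of 0.50 ± 0.31 on Illumina (adjusted p = 0.157) and 0.71 ± 0.41 on ONT (adjusted p = 0.157).

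Among the remaining ADAMTS genes, ADAMTS16, a fibronectin-cutting protease, was higher in HCC827 on both platforms. It had 17.3, 13.3 and 11.8 Illumina CPM in HCC827, against 2.44, 2.81 and 1.89 CPM in H1975, and log2 folds of 2.58 ± 0.17 on Illumina (adjusted p = 8.23e-09) and 2.80 ± 0.29 on ONT (adjusted p = 1.19e-05). ADAMTS18, its nearest relative, went the other way, by log2 folds of -2.22 ± 0.53 on Illumina (adjusted p = 0.00174) and -1.48 ± 0.27 on ONT (adjusted p = 0.000635). It had 9 Illumina counts in HCC827 and 74 in H1975. ADAMTS18 shares exon sequence with a non-coding gene on the opposite strand, and had 0.85 to 1.24 times its counts on ONT. Reads of that pair may thus not be separable. ADAMTS13, the protease of von Willebrand factor (chromosome 9, 133414358 to 133459402, plus strand), had 21.3, 22.3 and 22.2 Illumina CPM in HCC827, against 21.4, 21.8 and 23.6 CPM in H1975. These values overlap, with a log2 fold of -0.02 ± 0.09 (adjusted p = 0.837). On ONT, ADAMTS13 had 18.9, 21.0 and 16.7 CPM in HCC827, against 9.43, 9.99 and 10.2 CPM in H1975, which do not overlap, and the log2 fold was 0.94 ± 0.14 (adjusted p = 0.000201). REXO4 partly overlaps ADAMTS13 on the opposite strand, and the ratio of ADAMTS13 to REXO4 counts was 0.408 to 0.912 on Illumina and 0.710 to 0.887 on ONT. ADAMTS17 was lower in HCC827 on Illumina (log2 fold -0.97 ± 0.39, adjusted p = 0.0371), but not without HCC827 replicate 1 (-0.54, adjusted p = 0.256), HCC827 replicate 3 (adjusted p = 0.0552) or H1975 replicate 2 (adjusted p = 0.165). Its ONT log2 fold was 0.24 ± 0.42 (adjusted p = 0.632).

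Whether the line difference itself depended on the platform was tested as the ONT log2 fold minus the Illumina log2 fold in 1 model of the 12 libraries. Of 40 genes tested, 7 were called (17.5%), against 7.16% of all 29395 genes. The difference was above 0 for 4 of them and below 0 for 3, against 5.03% and 2.13% of all genes. The median of this difference over all genes was 0.11. MMP14 had a difference of 2.67 ± 0.39 (adjusted p = 0.000185) and MMP9 one of 1.46 ± 0.29 (adjusted p = 0.00363), so both were lower in HCC827 on each platform by a smaller fold on ONT. MMP24 had a difference of -1.68 ± 0.19 (adjusted p = 9.5e-06) and ADAMTS1 one of -2.73 ± 0.59 (adjusted p = 0.00653), so both were higher in HCC827 on each platform by a smaller fold on ONT. ADAMTS13 at 1.12 ± 0.17 (adjusted p = 0.000255) and MMP19 at -1.20 ± 0.28 (adjusted p = 0.0105) differed between the lines on ONT and were not called on Illumina. ADAMTS14 had a difference of 2.73 ± 0.70 (adjusted p = 0.0206), and was lost without H1975 Illumina replicate 1, 2 or 3, HCC827 Illumina replicate 3 or HCC827 ONT replicate 2 (adjusted p between 0.0569 and 0.103). A fit with the RNA sample as a block, which pairs the ONT and Illumina libraries of the same RNA, called the same 7 genes and ADAMTS9 (1.08, adjusted p = 0.0430).

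**Figure D4:**
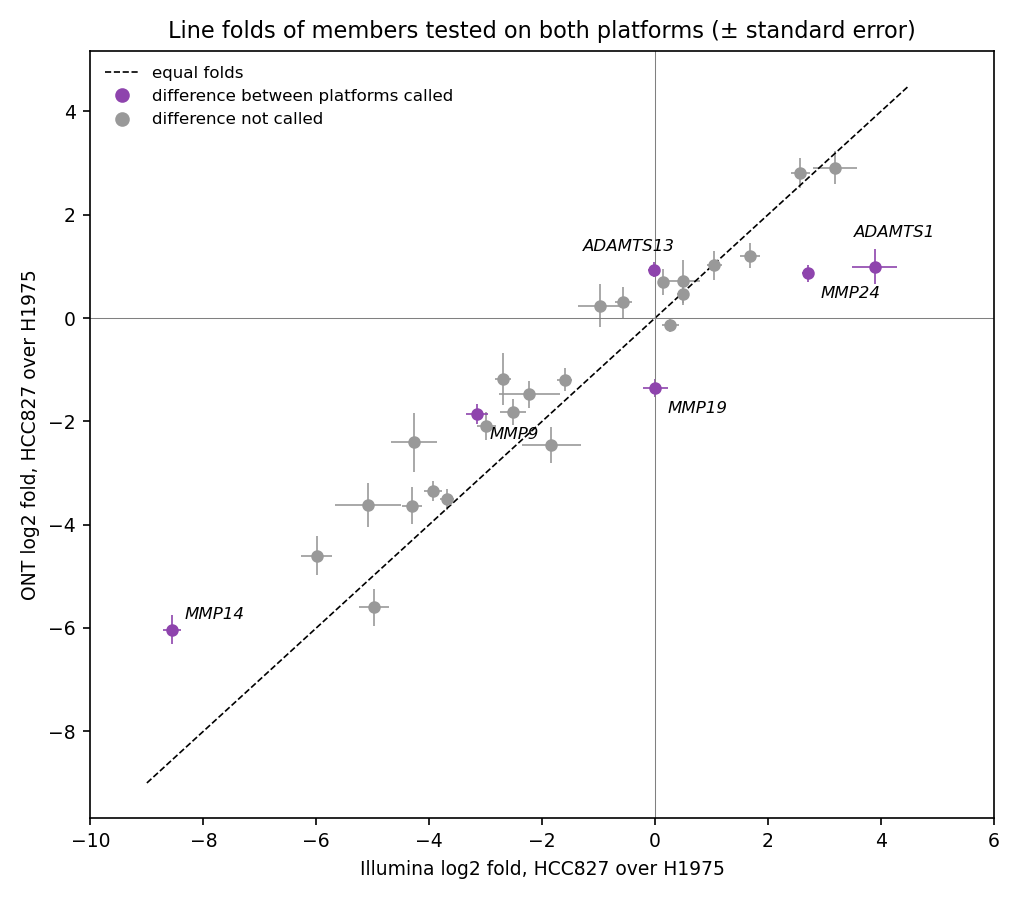
ONT against Illumina log2 fold (HCC827 over H1975) with standard errors for the 29 genes tested on both platforms, with the dashed line for equal folds and purple for genes whose fold differed between platforms. MMP14 and MMP9 lie above the line at negative folds, MMP24 and ADAMTS1 below it at positive folds; ADAMTS14, not tested on ONT alone, is not drawn.

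PacBio counts were too few for the test, and none of the 46 genes passed its filter, while 22.9% of the 901 genes that did pass were called. Over 3 libraries each, the 46 genes held 57 of 133044 counts in HCC827 and 102 of 144651 counts in H1975, and 18 of them had at least 1 count. MMP14 had 0 counts in HCC827 against 12, 11 and 15 counts in the H1975 libraries, and was at least 11.7-fold lower in HCC827 with a floor of 3 counts over the group. MMP24 had 20 counts in HCC827 and 2 in H1975, 10.9-fold higher in HCC827 per total count (95% Clopper-Pearson interval 2.64 to 95.9, counting error only). MMP9 had 2 counts in HCC827 and 13 in H1975, 5.98-fold higher in H1975 (interval 1.35 to 54.6). MMP15 was present in both lines, with 13 counts in HCC827 and 16 in H1975. MMP13, MMP28 and ADAMTS15 each had 0 counts in HCC827 and 5 in H1975, at least 1.53-fold lower in HCC827. ADAMTS16 and TIMP2 each had 4 counts in HCC827 and 0 in H1975, at least 1.45-fold higher in HCC827. Without the low-count filter, edgeR called MMP14 (log2 fold -6.69, adjusted p = 2.51e-10), MMP24 (3.08, adjusted p = 0.00222) and MMP9 (-2.51, adjusted p = 0.0403). This fit, the intervals and the floors take the 3 libraries of a line as independent, so they may be too narrow given the close pairs. With close pairs summed, edgeR tested 1 of the 46 genes, MMP14, and called it (log2 fold -7.24, adjusted p = 0.0155).

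**Figure D5:**
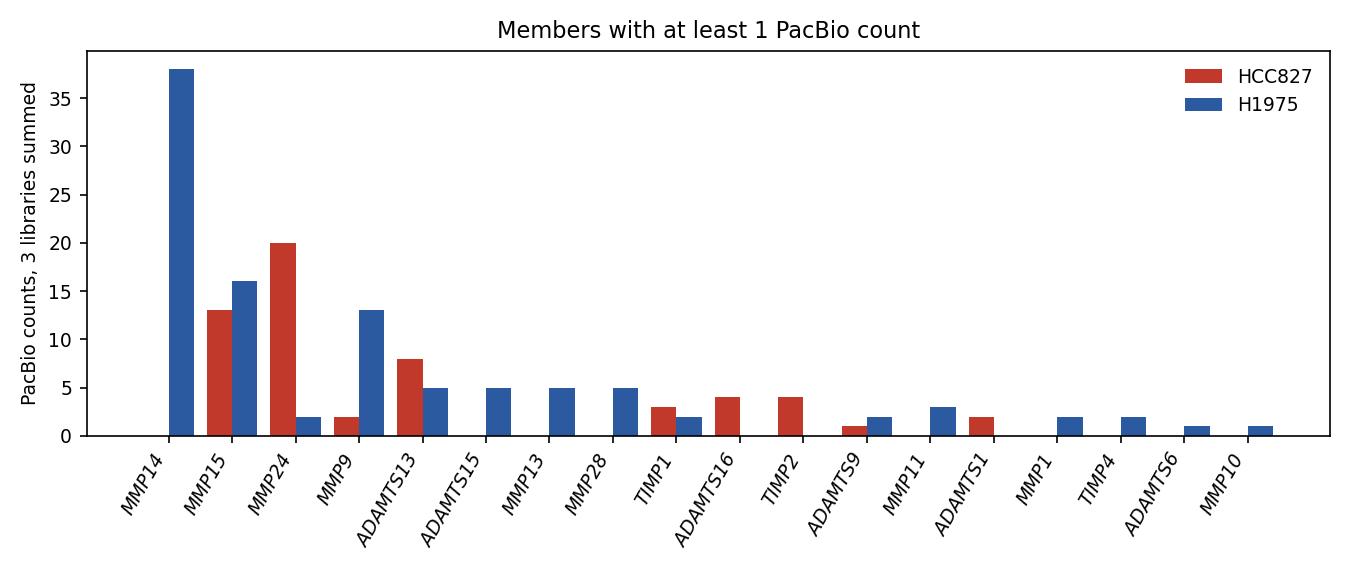
PacBio counts summed over 3 libraries per line for the 18 MMP, TIMP and ADAMTS genes with at least 1 count, HCC827 in red left of H1975 in blue. MMP14 has 0 counts in HCC827 and 38 in H1975, and MMP24 has 20 counts in HCC827 and 2 in H1975.

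Genes around these proteases were described from lists chosen with earlier results of these data known. Of all genes tested, 36.1% were called higher and 38% lower in HCC827 on Illumina, and 31.1% higher and 31.6% lower on ONT. Of 26 genes of protease activation and inhibition, 24 were tested on Illumina, where 8 were higher and 10 lower in HCC827, with a median log2 fold of -0.18. LCN2, which stabilises MMP9, had a log2 fold of 9.04 ± 0.27 (adjusted p = 2.78e-12). PCSK5, a furin-like convertase, was lower in HCC827 (-5.33 ± 0.27, adjusted p = 4.07e-10). Of 22 textbook substrates, 17 were tested, with 6 higher, 9 lower and a median of -1.39. COL1A2 and COL1A1, the chains of type I collagen that MMP1, MMP13 and MMP14 cut, were lower in HCC827. COL1A2 had 1 Illumina count in HCC827 and 8538 in H1975 (adjusted p = 4.6e-13), a level 6303 times higher in H1975 with a 95% exact counting interval of 1131 to 248982, and COL1A1 had a log2 fold of -4.55 ± 0.14 (adjusted p = 4.13e-12). COL4A2, a basement membrane chain, was higher, with a log2 fold of 7.87 ± 0.20 (adjusted p = 8.21e-13). COL4A1, its partner chain, was higher in HCC827 on Illumina (3.06 ± 0.22, adjusted p = 1.42e-08) and lower on ONT (-1.34 ± 0.19, adjusted p = 0.000116). Of 12 ADAMTS-like and procollagen-processing genes, 11 were tested, with 5 higher and 5 lower, among them the related procollagen proteases TLL1 at 6.40 ± 0.28 (adjusted p = 9.56e-11) and TLL2 at -4.61 ± 0.16 (adjusted p = 8.26e-12). All 16 AP-1 and ETS transcription factors on the list were tested, with 9 higher, 6 lower and a median of 0.54, from BATF3 at 4.48 ± 0.15 (adjusted p = 5.56e-12) to BATF at -3.01 ± 0.52 (adjusted p = 0.000121). Genes of each list thus went both ways, and nothing particular to a list is read from counts this small beside those of all genes. On ONT, 8 of 25 tested genes of protease activation and inhibition were higher and 10 lower, as were 4 and 9 of 16 substrates, 4 and 3 of 10 ADAMTS-like and procollagen-processing genes, and 8 and 3 of 16 AP-1 and ETS factors.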

How the data were processed

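Gene-level RNA-seq counts of 18 libraries were used, 3 independent RNA samples of each of 2 cell lines on 3 platforms. The authors deposited raw counts per gene, not normalized, in 1 file per library. Per the labels' protocols, Illumina libraries came from 3.75 ng of mRNA with a directional kit, 11 PCR cycles and 75 nt read pairs, ONT cDNA libraries from 1.5 ng of mRNA with 14 cycles, and PacBio libraries from total RNA sized near 2 kb with 12 cycles. The submitters' processing notes name minimap2 2.17, featureCounts and GRCh38. Which tool served which platform, and whether counting used strand, is not stated in the sources used here. PacBio counts were taken from clustered sequences, per the file headers, so a count may stand for several reads. The headers also mark PacBio HCC827 replicate 3 as poly(A) and Illumina HCC827 replicate 3 as a repeat, and what either mark did to the values was not tested. Synthetic spike-in genes were left out of library sizes and tests. Counts were tested with edgeR 4.0.16 in R 4.3.3 (TMM scaling, low-count filter by group, robust quasi-likelihood fit, Benjamini-Hochberg adjustment over all genes tested, threshold 0.05), within each platform and as a line by platform interaction over the 12 ONT and Illumina libraries. The standard error of a log2 fold is its size divided by the square root of F. CPM and RPKM use effective library sizes and merged GENCODE 44 exon lengths. A member was named in full where its mean reached 1 CPM in either line or its counts bore on a result; the others are given by counts. DESeq2 1.42.0, limma-voom (limma 3.58.1), RLE scaling, no filter, a replicate block and each library left out were tried, and the fits were tested on simulated data. The members and lists were chosen with earlier results of these data known. ONT and Illumina libraries of 1 number come from the same RNA by design, and their deviations from the group means correlated at 0.00237 to 0.216. Cultures within a line are called independent in the labels, and p-values measure the spread between them. Intervals and floors cover counting error only.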

Additional observations from a re-analysis of the deposited data

Results flagged for a closer look

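For 7 genes the HCC827 over H1975 log2 fold differed between ONT and Illumina by the test of that difference (edgeR quasi-likelihood interaction, Benjamini-Hochberg adjusted p below 0.05, 6 libraries per platform). The differences, ONT minus Illumina, were 2.67 for MMP14, 1.46 for MMP9, 1.12 for ADAMTS13, 2.73 for ADAMTS14, -1.20 for MMP19, -1.68 for MMP24 and -2.73 for ADAMTS1. MMP14, MMP9, MMP24 and ADAMTS1 kept the direction of the line difference on both platforms and had the smaller fold on ONT. MMP19 and ADAMTS13 had overlapping lines on Illumina and separate ones on ONT. ADAMTS14 had 5 Illumina counts in HCC827 and 81 in H1975, and 18 ONT counts in HCC827 and 34 in H1975. MMP9, MMP19, MMP24 and ADAMTS13 overlap a gene on the opposite strand, MMP14 and ADAMTS1 share no exon with another gene, and the part of shared reads in these differences was not tested. No group here has the 4 libraries that a check for a single outlying library needs.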

How the results depend on the processing

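No called gene changed direction. Of the called MMP, TIMP and ADAMTS genes, 26 of 27 on Illumina, 21 of 24 on ONT and 6 of 7 in the interaction passed under every alternative; the exceptions were ADAMTS17 on Illumina, ADAMTS1, ADAMTS20 and MMP15 on ONT and ADAMTS14 in the interaction. Calls were also gained: TIMP1 on Illumina (adjusted p = 0.0487) and TIMP2 on ONT (0.0465) with no filter, and ADAMTS6 on ONT with limma-voom (-1.52, adjusted p = 0.0424). With no filter the interaction called 10 of these genes, adding ADAMTS6 (1.69, adjusted p = 4.83e-11), ADAMTS9 (1.08, adjusted p = 0.0209) and MMP15 (0.74, adjusted p = 0.0165); with the RNA sample as a replicate block it added ADAMTS9 (1.08, adjusted p = 0.0430). Leaving out 1 library added TIMP1 on Illumina (0.46, without HCC827 replicate 1), TIMP2 (0.65) and ADAMTS6 (-0.71) on ONT without HCC827 replicate 3, and TIMP2 (0.61) without H1975 replicate 1. In the interaction it added ADAMTS6 (2.09) and MMP15 (0.86) without HCC827 ONT replicate 3, ADAMTS15 (1.33) and ADAMTS9 (1.25) without HCC827 Illumina replicate 1, and ADAMTS9 (1.34) without H1975 ONT replicate 2. Counts of these genes called higher and lower without 1 library each were 8 to 9 and 18 to 21 on Illumina, 6 to 9 and 15 to 17 on ONT, and 6 to 9 in the interaction. The interaction called 2105 genes in all and 1300 to 3782 without 1 library, with 3782 without HCC827 ONT replicate 3 and 1300, 1318 and 1352 without H1975 Illumina replicate 1, 2 and 3. PacBio called 103 genes higher and 103 lower in HCC827, against 29 and 34 with close pairs summed, 48 and 40 with limma-voom, 330 and 641 with no filter, 49 higher with DESeq2, and 11 to 178 and 13 to 158 without 1 library each. Of the 46 genes PacBio then called 1 higher and 2 lower with no filter, and 1 lower (MMP14) with DESeq2, with close pairs summed and without HCC827 replicate 1, 2 or 3 or H1975 replicate 1 (0 to 1 over the 6 libraries). The cause of these shifts was not tested. With a replicate block, pairing equal numbers across the lines, Illumina called 8 genes higher and 18 lower, ONT 7 and 15, and PacBio 26 and 24 of all genes. Deviations of libraries with equal numbers correlated at -0.0750 to 0.110 on Illumina, -0.139 to 0.0185 on ONT and -0.536 to 0.238 on PacBio. ONT and Illumina libraries of the same H1975 RNA correlated at only 0.00237 to 0.0567. Such values therefore cannot show whether equal numbers of the lines share more than a number. Without the filter the median over all Illumina genes moved to -0.20. Depth limits PacBio most, where a gene with 0 counts in a line may be up to 3 counts.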
